A study of Mus musculus and Homo sapiens with 22 samples.

Results

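The regions described here are the promoter sites at which PROX1 was mapped both in mouse liver and in mouse embryonic fibroblasts (MEFs). A liver PROX1 peak was counted when its summit, the base of highest signal, lay within 1 kb of an annotated transcription start site (TSS) and when it overlapped a MEF peak by at least 1 bp. Of 50159 liver peaks, 10217 had a summit at a promoter, and 5500 of these were shared, which is 53.8% of the liver promoter peaks (95% Wilson interval 52.9 to 54.8%). Members were thus chosen by measured values, the peak calls of both lists, so that overlap, peak strength and peak width are given below as descriptions. The overlapping MEF peaks numbered 5005 of the 40531 MEF peaks.

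PROX1 was profiled by CUT&RUN, in which an antibody directs a nuclease to the bound protein and the released DNA is sequenced. Liver nuclei came from wild-type C57BL/6J mice aged 2 to 3 months and carried only the animals' own PROX1, which was captured with an anti-Prox1 antibody (n = 5, beside 5 IgG samples). The MEFs were wild-type C57BL/6N cells from E13.5 embryos that carried rtTA and tetO-FLAG-mmProx1 lentivirus and received 2 μg/ml doxycycline for 2 days. Their FLAG-tagged factor was captured with anti-FLAG (n = 3, beside 3 IgG samples). Hep3B, a human hepatocellular carcinoma line, carried inducible human PROX1 from pLIX-Puro-hsPROX1 lentivirus, was selected with puromycin and received 2 μg/ml doxycycline for 2 days. It was also profiled with anti-FLAG (n = 3, beside 3 IgG samples) and serves here as a further readout that did not enter the choice of members. Each list pooled the antibody samples of its group, so no value has a spread between samples and no difference was tested. The intervals cover counting error over peaks or genes only. Tissue, antibody and the origin of the factor differed together between liver and MEFs and cannot be told apart, and the depth of the libraries is unknown from these files.

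PROX1 is a homeodomain transcription factor that hepatocytes, lymphatic endothelium and some neurons use to hold their identity, and it often acts as a repressor together with histone deacetylase complexes. It also occurs at DNA with nuclear receptors such as HNF4A and NR5A2. Many mammalian promoters lie in CpG islands, GC-rich stretches where CpG dinucleotides have been kept, and serve genes used by nearly all cells. Promoters of tissue-specific genes are more often poor in CpG.

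The strongest sites were ranked by the lower of their 2 percentiles of summit −log10 p, one among all liver peaks and one among all MEF peaks. The liver summit with 60 bases to each side is printed for 7 of the high-ranking sites whose window held no annotated exon base, since they show the range of sequence under shared summits. All are given 5′ to 3′ on the plus strand of mm10, with capitals marking a match, on either strand, to one of the words searched for. These words were GGGCGGGG for Sp/KLF factors, CCAATCA for NF-Y, AGGTCA, the single binding element of many nuclear receptors, and GGAATG for TEAD.
Camsap1, chr2:25983371-25983491: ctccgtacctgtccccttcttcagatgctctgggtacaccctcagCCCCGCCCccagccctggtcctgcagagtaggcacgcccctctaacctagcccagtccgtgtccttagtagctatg
Tmbim6, chr15:99394064-99394184: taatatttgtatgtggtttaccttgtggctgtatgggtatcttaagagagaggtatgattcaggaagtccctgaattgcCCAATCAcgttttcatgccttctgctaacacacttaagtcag
Sptlc2, chr12:87388395-87388515: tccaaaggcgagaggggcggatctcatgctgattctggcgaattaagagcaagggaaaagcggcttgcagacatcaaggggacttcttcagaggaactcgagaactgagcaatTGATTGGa
Emc9, chr14:55585800-55585920: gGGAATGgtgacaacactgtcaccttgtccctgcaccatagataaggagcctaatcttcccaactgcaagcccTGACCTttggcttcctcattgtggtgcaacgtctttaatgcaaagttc
Dhx8, chr11:101732635-101732755: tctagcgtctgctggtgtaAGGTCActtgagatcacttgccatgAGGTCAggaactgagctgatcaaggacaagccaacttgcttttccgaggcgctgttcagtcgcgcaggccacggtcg
Mapk14, chr17:28690959-28691079: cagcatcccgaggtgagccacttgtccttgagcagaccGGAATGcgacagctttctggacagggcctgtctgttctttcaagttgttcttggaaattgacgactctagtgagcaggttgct
Gucd1, chr10:75516401-75516521: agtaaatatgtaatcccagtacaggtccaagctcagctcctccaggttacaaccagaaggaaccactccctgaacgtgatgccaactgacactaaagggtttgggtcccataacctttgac

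These windows differed widely in composition. The Camsap1 window was 62.0% G + C with 4 CpGs, whereas the Tmbim6 window was 40.5% G + C with 1 CpG. The Camsap1 window held 1 Sp/KLF word, the Tmbim6 and Sptlc2 windows 1 NF-Y word each, and the Dhx8 window 2 nuclear receptor words in the same orientation. The Emc9 window held 1 nuclear receptor word and a TEAD word, the Mapk14 window a TEAD word, and the Gucd1 window none of the words searched for. The Tmbim6 and Gucd1 summits lay in introns, 514 and 709 bp downstream of the TSS, and the other windows lay in intergenic sequence upstream of the genes they are named for.

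The site ranked first in the joint order was at chr1:88277234-88280425, where the liver summit fell on an annotated TSS of Trpm8, a cold-sensing ion channel gene. This summit lay in a noncoding exon, and no protein-coding transcript of Trpm8 started within 1 kb of it. The only gene with such a start was Hjurp, which encodes the chaperone of the centromeric histone. The site's summit −log10 p was 34.7 in liver, rank 4 of all liver peaks, and 15.7 in MEFs, rank 1 of all MEF peaks, and the summits lay 3 bp apart. Camsap1, a microtubule minus-end gene, followed with 21.6 in liver and 9.44 in MEFs. Tmbim6, an inhibitor of cell death at the endoplasmic reticulum, had 23.0 and 9.26, with summits 1212 bp apart. Thus a site could rank high in both lists with its summits together or far apart.

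Among the next sites were Sptlc2, a subunit of the enzyme that starts sphingolipid synthesis (24.2 in liver, 9.18 in MEFs), and Acsl1, which activates long-chain fatty acids (20.6 and 9.74). Their summits lay 20 and 22 bp apart. Cish, a suppressor of cytokine signaling, had a liver peak of 3951 bp that overlapped 2 MEF peaks, and its nearest TSS was that of the pseudogene Gm17040. Emc9, a subunit of the ER membrane protein complex (20.8 and 10.3), Dhx8, a splicing helicase (23.7 and 8.91), and Mapk14, the p38α kinase gene (20.4 and 8.81), completed the first 10 together with Gm26917. The Gm26917 peak at chr17:39843040-39846373 was the strongest of all liver peaks (61.7) and ranked 1550 in MEFs. It lay beside CT010467.1, annotated as ribosomal RNA, where a second member had 30.5 in liver and 8.60 in MEFs. Ribosomal DNA has many near-identical copies, so reads at these 2 members could come from other copies and the values are uncertain.

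In all, 235 members, or 4.27% (3.77 to 4.84%), lay in the top quartile of both lists, with 9.65% in that of the liver list and 54.8% in that of the MEF list. The top 10% of both held 46 members. In liver, members were mostly weak peaks: the median summit −log10 p was 10.3 (quartiles 8.95 and 12.3), percentile 27.5 of the liver list, and 46.8% of members fell in its bottom quartile. In MEFs their partners were mostly strong, with a median of 7.30 (quartiles 6.13 and 8.43), percentile 79.2 of the MEF list. Across the 5500 members the 2 percentiles had a Spearman correlation of −0.121, a description over sites of the same pooled libraries. The plot of strength shows the members crowded in the corner of low liver and high MEF percentile.

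**Figure D1:**
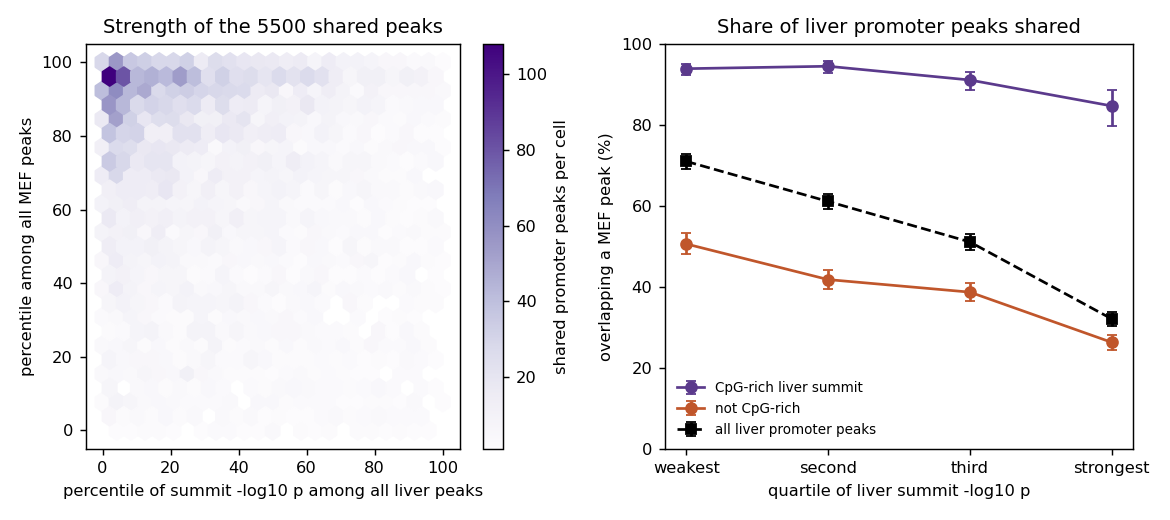
Left, hexagonal bins of the 5500 shared promoter peaks by the percentile of summit −log10 p in the liver list (x axis) and of the overlapping MEF peak in the MEF list (y axis), with color for the number of peaks per cell; medians were 27.5 and 79.2. Right, share of liver promoter peaks that overlapped a MEF peak by quartile of liver summit −log10 p, for all 10217 and split by CpG content at the summit, with 95% Wilson intervals; among all, the share fell from 71.0% to 32.1%.

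Weak liver promoter peaks were shared more often than strong ones. In the weakest quartile (summit −log10 p below 9.42) 71.0% were shared, and in the strongest quartile (above 13.8) 32.1% (30.3 to 33.9%). Width showed no such steady course, with 49.5%, 58.5%, 56.5% and 50.9% shared from the narrowest quartile to the widest. Among peaks without a CpG-rich summit window it was 30.0%, 39.2%, 38.7% and 42.0%. Liver promoter peaks that overlapped no MEF peak (n = 4717) had a median −log10 p of 12.2 and a median width of 539 bp, against 10.3 and 536 bp for members. Over all liver peaks, promoter or not, 18.9% overlapped a MEF peak.

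The partner peaks in MEFs were broad. Their median width was 1172 bp (quartiles 829.8 and 1571), and 52.6% of the liver peaks lay wholly inside the MEF peak. The median number of bases in common was 455. Most members (5329, or 96.9%) overlapped 1 MEF peak, 161 overlapped 2, and 10 overlapped 3. Among those 10 was the peak at Myc, the growth-promoting oncogene, at chr15:61984302-61987403, with a summit 189 bp upstream of the TSS and values of 15.3 in liver and 7.11 in MEFs. The longest member spanned 8241 bp at Slc25a25, a mitochondrial carrier gene, where the liver and MEF summits lay 4862 bp apart in 1 broad domain.

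The limits of the definition cut through a continuum. Just inside the 1-kb limit were the peaks at Zmym2 and AC167363.2, each with a summit 1000 bp from the TSS, and just outside were Spin1 and Mia3, each 1 bp beyond it. Only 1 base was held in common at Nucb1, and 2 at Tedc2 and at Hdgf, while liver promoter peaks at Tmem106b, Nfic and Mir670hg ended directly beside a MEF peak. Such cases were few: 57 members shared under 50 bases, and 78 liver promoter peaks without overlap lay within 50 bp of a MEF peak. A MEF peak was over 10 kb away for 2243 of the 4717.

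Members gathered just upstream of the TSS. The liver summit lay at a median of −47 bp (quartiles −197 and 68), upstream in 62.6% of members, and the MEF summit lay at −64 bp from the same TSS (quartiles −184 and 58), upstream in 66.2%. In absolute distance to any TSS, MEF summits had a median of 87 bp against 160 bp for the liver summits of the same members. Measured to the TSS nearest the liver summit, the MEF summit was the nearer of the pair in 2772 members (50.4%, 49.1 to 51.7%). Liver promoter peaks without a MEF peak lay farther out, with a median of 387 bp, and 40.9% of them had a summit beyond 500 bp, compared with 20.5% of members. The plot of summit position shows the sharp crest of the members beside the lower crest of the liver peaks that were not shared.

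**Figure D2:**
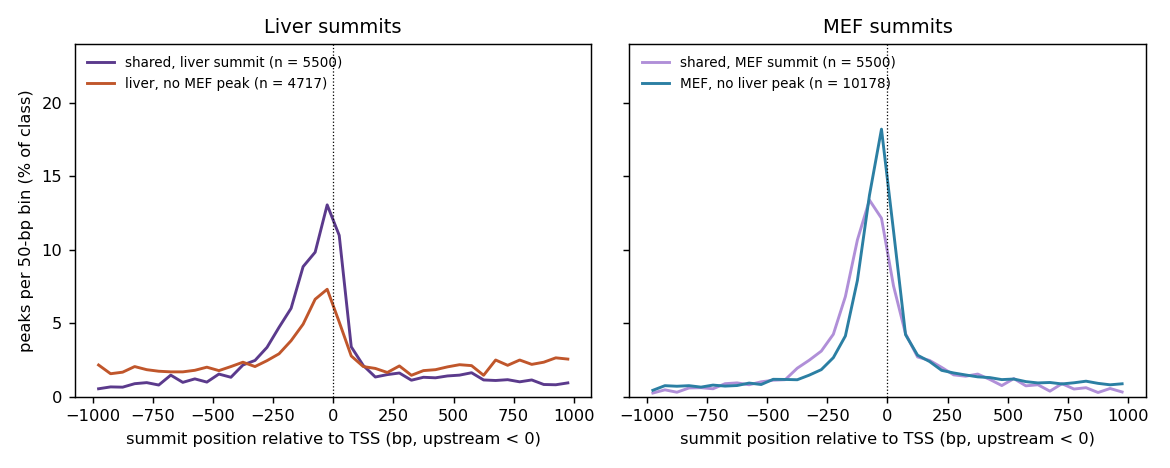
Share of peaks per 50-bp bin (y axis, % of class) by position of the summit relative to the TSS (x axis, bp, upstream negative), for liver summits (left: 5500 shared peaks and 4717 liver peaks without a MEF peak) and MEF summits (right: the same 5500, on the TSS nearest to the liver summit, and 10178 MEF promoter peaks without a liver peak). Lines crest just upstream of the TSS, where 37.3% of shared liver summits but 21.9% of those without a MEF peak lay within 100 bp of it.

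By annotation, 37.2% of the members' liver summits were intergenic, 30.6% intronic, 19.4% in untranslated exon sequence, 9.65% in other noncoding exons and 3.11% in coding sequence. The nearest TSS belonged to a protein-coding gene in 4830 members (87.8%), to a lincRNA in 3.65% and to an antisense RNA in 2.85%. Of liver promoter peaks whose nearest gene was protein-coding, 59.4% were shared, against 32.0% of those nearest to any other kind of gene. Processed pseudogenes had the lowest share among the gene types compared, 17 of 230 peaks (7.39%, 4.67 to 11.5%). Bidirectional promoter lncRNAs stood at the other end, with 32 of 42 (76.2%, 61.5 to 86.5%).

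Head-to-head promoters, where protein-coding genes start within 1000 bp of each other on opposite strands and run apart, held 428 members (7.78%, 7.10 to 8.52%). They held 35 of the liver promoter peaks without a MEF peak (0.742%, 0.534 to 1.03%) and 5.98% of the MEF promoter peaks without a liver peak. Within CpG-rich summits the shares were 10.5%, 3.69% and 8.36%. Among chromosomes, 53 of 141 liver promoter peaks on the X were shared (37.6%, 30.0 to 45.8%). On the autosomes the share ran from 49.4% on chromosome 6 to 63.6% on chromosome 11 (541 of 850, 60.4 to 66.8%).

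Shared and unshared liver peaks differed widely in CpG content. A window of 100 bp to each side of the summit was called CpG-rich when its G + C was at least 50% and its CpG count at least 0.6 of that expected from its bases. By this measure 92.8% of the 2997 CpG-rich liver promoter peaks were shared (91.8 to 93.6%), against 37.7% of the 7220 others (36.6 to 38.8%). The difference was present in every quartile of peak strength. In the weakest quartile 93.9% of CpG-rich and 50.6% of other peaks were shared, and in the strongest quartile 84.7% and 26.3%.

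Seen from the members, 50.5% had a CpG-rich liver summit (49.2 to 51.9%), compared with 4.60% (4.04 to 5.24%) of liver promoter peaks without a MEF peak, 60.0% of MEF promoter peaks without a liver peak and 48.6% of windows at all protein-coding TSSs. At the MEF summits of the same members the share was 71.5%. Median G + C was 57.7% at the members' liver summits, 63.7% at their MEF summits and 48.3% at the liver peaks that were not shared. In CpG content the members' liver summits thus lay close to TSS windows at large, and their MEF summits above them. The positions differ, since the windows of all genes sit on the TSS itself. Measured alike at the TSS, 77.6% of genes with a shared peak had a CpG-rich promoter, against 48.6% of all genes.

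**Figure D3:**
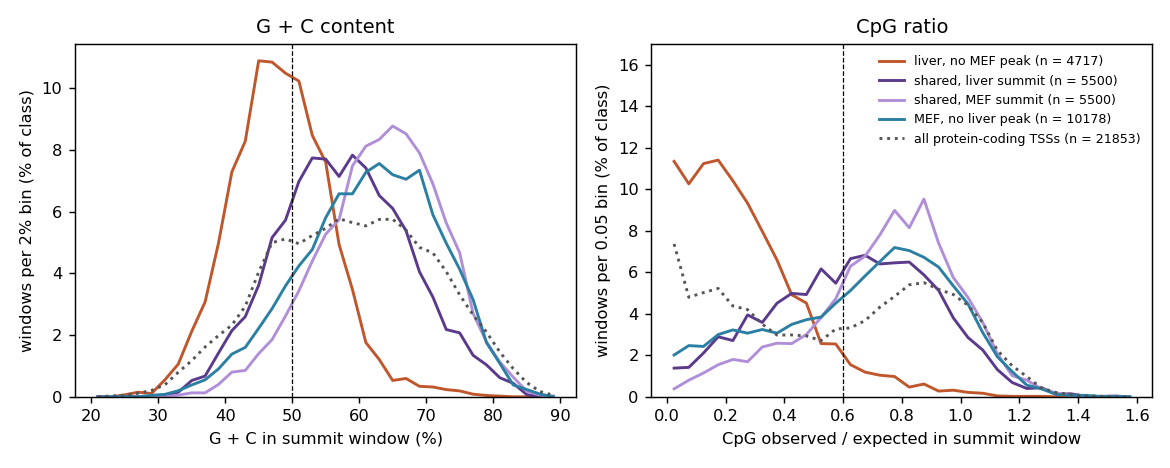
Distribution of G + C content (left, %) and of the CpG observed to expected ratio (right) in windows of 100 bp to each side of the summits of each class and at 1 TSS of each protein-coding gene, as the share of windows per bin; dashed lines mark the limits of 50% and 0.6. Liver peaks without a MEF peak (median ratio 0.226) lie left of the shared liver summits (0.644) and of the MEF summits of the same shared peaks (0.763).

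The summits of a shared site often did not coincide. The median distance between the liver and the MEF summit was 187 bp (95% interval of the median 178 to 198), and 18.4% lay within 50 bp while 25.2% lay over 500 bp apart. Among the 1012 members with summits within 50 bp, 69.5% of liver summits were CpG-rich, and the median liver summit was 85 bp from a TSS. Among the 1388 with summits over 500 bp apart, 24.3% were CpG-rich and the median was 509.5 bp, whereas their MEF summits stayed at a median of 91.5 bp and 71.7% CpG-rich. By these medians the MEF summits lay closer to an annotated TSS than the liver summits did. Each distance is to any TSS, so the MEF summit need not lie at the TSS nearest the liver summit. In all, both summits were CpG-rich in 2410 members, only the MEF summit in 1525, only the liver summit in 370 and neither in 1195.

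Short sequence words differed between the liver and MEF summits of the same members. The Sp/KLF word (GGGCGGGG), bound by factors common at CpG islands, was in 18.1% of liver summit windows (17.1 to 19.1%) and in 29.1% of MEF summit windows (27.9 to 30.3%). The NF-Y word (CCAATCA), the CCAAT box of many housekeeping promoters, was in 3.85% and 7.62%. The nuclear receptor word (AGGTCA) ran the other way, with 14.1% at liver summits (13.2 to 15.1%) and 8.15% at MEF summits (7.45 to 8.90%). Over all 21853 protein-coding TSS windows these words were in 18.8%, 6.31% and 9.13%, so of these 3 the nuclear receptor word alone was more frequent at the members' liver summits than at TSSs at large. The gap in the nuclear receptor word varied with the distance between the summits. Its shares at liver and MEF summits were 19.7% against 7.35% where the summits lay over 500 bp apart, 10.7% against 10.3% at 51 to 100 bp, and 9.29% against 8.70% within 50 bp. In the groups between 100 and 500 bp they were, from near to far, 11.8% against 7.72% and 17.2% against 7.64%. Windows reach 100 bp to each side, so summits within 100 bp of each other have much of their window in common. The near-equal shares there follow in part from this overlap and cannot show whether the gap depends on distance. Where the liver window was CpG-rich, the shares were 9.03% against 6.94%. The nuclear receptor word was in the liver window alone in 572 members and in the MEF window alone in 243.

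At liver promoter peaks without a MEF peak the nuclear receptor word was in 25.6% of windows (24.4 to 26.9%) and the Sp/KLF word in 2.63%. Within CpG-rich windows, of which 217 were unshared, the nuclear receptor word was in 9.03% of shared and 11.5% of unshared liver summits and the Sp/KLF word in 27.8% and 20.7%. Words of hepatocyte factors followed the nuclear receptor word. HNF4A (CAAAGTCCA) was in 0.673% of the members' liver windows, 0.291% of their MEF windows and 2.57% of the unshared liver windows. FOXA (TGTTTAC) was in 2.44%, 1.76% and 6.25%, HNF1 (GTTAATNAT) in 0.564%, 0.0909% and 1.97%, and the word CAAGGTCA of NR5A2 and the ESRR receptors in 1.49%, 0.60% and 2.97%. In each case, over all windows, the members' liver summits lay between their MEF summits and the unshared liver peaks. Within CpG-rich windows, HNF4A was in 0.324% of shared and 1.38% of unshared liver summits, and FOXA in 1.58% and 2.30%. There the order turned for HNF1 (0.252% and 0%) and CAAGGTCA (0.899% and 0.461%). With 217 unshared CpG-rich windows, these shares rest on few hits. The ETS word (CCGGAAG), common at housekeeping promoters, was in 8.93% of the members' liver windows, 11.5% of their MEF windows and 1.29% of the unshared ones.

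The published PROX1 consensus, searched with up to 2 mismatches on both strands, was in 302 of the members' liver windows (5.49%, 4.92 to 6.12%) and in 207 of their MEF windows (3.76%, 3.29 to 4.30%). It was in 4.88% (4.30 to 5.53%) of unshared liver peaks and in 3.90% of all protein-coding TSS windows. These levels were low in every class, and the intervals of shared and unshared liver summits overlapped. The study instead mapped a database motif of PROX1 over the genome and intersected it with whole peaks. The shares here therefore do not say how many peaks hold that motif. Among other words, NRF1 (GCGCATGCG) was in 2.11% of the members' liver windows and 1.79% of all TSS windows, and YY1 (AAGATGGCG) in 1.20% and 1.84%. CREB/ATF (TGACGTCA) was in 0.945% and 2.04%, ZBTB33 (CTCGCGAG) in 0.382% and 0.901%, and RFX (GTTGCCAT) in 0.509% and 0.815%. The E-box CACGTG was in 5.00% and 5.61%, its longer form TCACGTGA in 0.527% and 0.952%, and ZNF143 (ACTACAATT) in 0.709% and 0.311%. ONECUT/CUX (ATCGAT) was in 1.36% and 0.476%, C/EBP (TTGCGCAA) in 0.291% and 0.142%, and AP-1 (TGACTCA) in 2.93% and 2.77%. TEAD (GGAATG) was in 8.82% and 7.84%, CTCF (AGNGGGCGC) in 3.00% and 2.75%, and the TATA box (TATAAA) in 4.00% and 8.03%. The nuclear receptor word lies inside CAAGGTCA and the E-box inside TCACGTGA, so these words overlap.

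**Figure D4:**
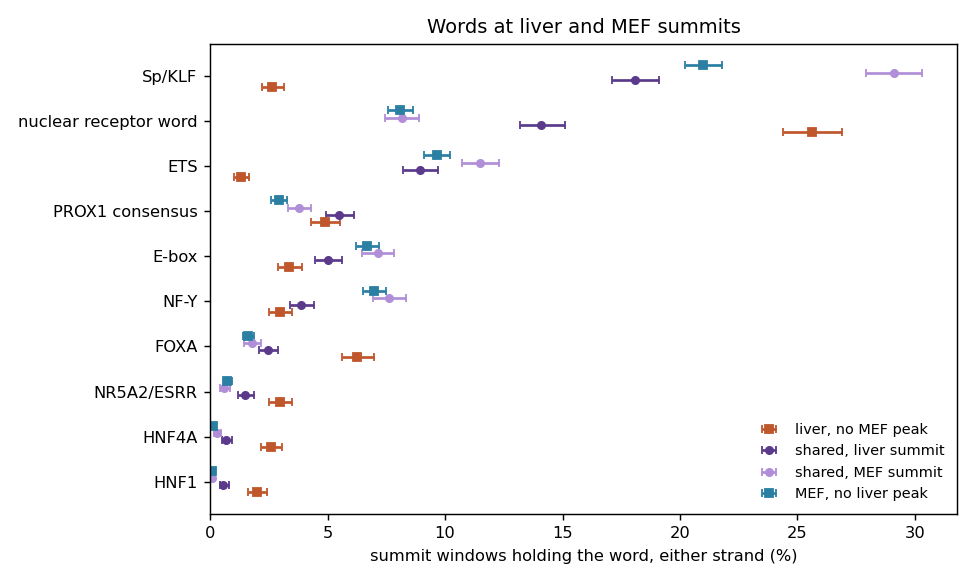
Share of summit windows (100 bp to each side) that held each word on either strand (x axis, %), with 95% Wilson intervals, at the liver and MEF summits of the 5500 shared peaks and at the liver and MEF promoter peaks that were not shared. For Sp/KLF the members' MEF summits are highest (29.1%), and for the nuclear receptor word the liver peaks without a MEF peak are highest (25.6%) with the members' liver summits next (14.1%).

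A like contrast appeared without chosen words, though GC-rich words were also above their flanking rate at liver summits. Within 25 bp of the members' liver summits, AGGTCA occurred 241 times, 1.94 times its rate in windows 200 bp to either side, the highest ratio of the 6-base words with at least 200 occurrences. CCGGAA, the ETS core, came next with 1.89, and then AGTCCA with 1.76, which is part of the HNF4A word, and CTTGGC with 1.75. GC-rich words followed, AGGCGG with 1.72, AGGGCG with 1.69, and GAGGGC and CCGCCC with 1.67 each. A rarer word could be higher, as TGCGCA was with 2.25 at 127 occurrences. At the MEF summits of the same members, AGGTCA had a ratio of 0.918. There CCAATC led with 2.84, CGCCCC followed with 2.75, and CCGCCC had 2.62. At liver summits without a MEF peak AGGTCA reached 2.50 and CCGGAA 1.26.

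In terms of genes, 4902 members lay within 1 kb of a protein-coding TSS, and they marked 4579 of 21853 protein-coding genes, or 21.0%. For comparison, 26.7% of these genes had any liver promoter peak and 55.4% any MEF promoter peak. Among genes with a CpG-rich promoter 33.4% were marked by a shared peak, and among the others 9.13%. More than 1 shared peak was found at 760 genes, and 512 members served 2 genes. At 333 further genes both lists had promoter peaks that did not overlap.

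Hep3B gave a readout that the choice of members did not use. Mouse genes were matched to human genes of the same symbol, and 48.8% of the 15762 matched genes had a Hep3B promoter peak. Among genes with a shared peak the share was 78.6% (3277 of 4167, 77.4 to 79.9%). It was 65.9% (60.4 to 71.0%) where liver and MEF peaks did not overlap, 58.3% (57.0 to 59.5%) for genes with a MEF peak only, 18.1% (15.4 to 21.3%) for genes with a liver peak only and 8.46% (7.66 to 9.34%) for genes with neither. The order was the same within CpG-rich promoters, where the shares were 81.9%, 75.7%, 63.6%, 27.5% and 12.9%. The intervals there were 80.6 to 83.2% for shared genes and 62.3 to 65.0% for genes with a MEF peak only. Outside CpG-rich promoters the shares for these classes were 66.9% and 41.0%. The classes were not matched for peak strength. Median −log10 p in MEFs was 7.30 at the members' partners and 6.20 at MEF promoter peaks without a liver peak. Hep3B cells, like MEFs and unlike liver, carried an overexpressed FLAG-tagged factor, and the part of the tag and antibody in these shares was not tested.

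The promoters of cell identity genes were set beside the labels of the lists. These gene lists were chosen with earlier results of these data known, so the counts are descriptions and no independent check. All 30 hepatocyte genes found had a liver promoter peak and 6 a MEF promoter peak, while of 31 fibroblast genes 3 had a liver peak and 25 a MEF peak. Over all genes 26.7% had a liver promoter peak and 55.4% a MEF promoter peak. Shared peaks marked 6 of the 30 hepatocyte genes (20.0%) and 3 of the 31 fibroblast genes (9.68%), against 21.0% of all genes. Only 5 of the hepatocyte and 8 of the fibroblast genes had a CpG-rich promoter, and of all genes without one 9.13% were marked. The 6 marked hepatocyte genes were not the same as the 6 with a MEF promoter peak. Foxa1 had promoter peaks of both lists that did not overlap, and the MEF summit of a shared peak could lie beyond 1 kb. The hepatocyte genes marked were Apob, Fgb, Cebpa, Foxa2, Foxa3 and Onecut1, of which 4 encode transcription factors. At Fgb, a fibrinogen chain gene, the liver peak was strong (29.5) but its summit lay 997 bp from the TSS. The overlapping MEF peak had its summit 4633 bp from the liver summit and 5630 bp from the TSS. At Onecut1 the values were 10.9 and 5.34 with summits 49 bp apart. Alb, Ttr and Hnf4a had liver promoter peaks of 14.0, 28.8 and 12.5 and no MEF promoter peak. Prox1 itself had a liver peak with a summit 6 bp from its TSS (13.7) and none in MEFs.

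The 3 fibroblast genes were Snai2, a repressor of epithelial genes (15.0 in liver, 6.09 in MEFs), Fn1, which encodes fibronectin (11.5 and 7.17), and Pdgfra, a growth factor receptor (9.66 and 3.84). Prrx1, a mesenchymal homeobox gene, had a promoter peak in MEFs only, with the nearest liver summit 3221 bp from its TSS. Among neuronal genes 1 of 23 was marked (4.35%, 0.772 to 21.0%), although 18 of the 23 had a CpG-rich promoter. The share was 21.0% over all genes and 33.4% over those with a CpG-rich promoter. The marked gene was Rcor1, a corepressor, whose liver peak was near the bottom of its list (7.28) and whose MEF peak was strong (9.72). Map2 had a MEF promoter peak only (8.01), and Tubb3 neither.

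Of 24 muscle and heart genes 6 were marked (25.0%, 12.0 to 44.9%), an interval that holds both the 21.0% of all genes and the 33.4% of those with a CpG-rich promoter. Myh9, which encodes a nonmuscle myosin heavy chain, was the strongest, with a peak at chr15:77841789-77843263, 17.5 in liver and 11.7 in MEFs, and summits 9 bp apart. Gata4, a transcription factor of heart and liver, had 13.8 and 6.96, and Mef2b 13.7 and 8.97. Gata6, Mef2a and Mef2d were the others. Hand2 and Des had no promoter peak in either list. At Hand2 the nearest MEF summit lay 1004 bp from the TSS, just beyond the limit.

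Adipocyte genes had 8 of 24 marked (33.3%), beside 21.0% of all genes and 33.4% of those with a CpG-rich promoter. Pparg, the master regulator of fat cells, had a peak at chr6:115360760-115361231 with 9.07 in liver and 5.74 in MEFs, and Ebf2, a factor of brown fat precursors, one at chr14:67234423-67234691 with 8.97 and 8.04. Their summits lay 166 and 24 bp apart. Both liver peaks were weak, at percentiles 11.9 and 10.8 of the liver list. Cebpd (12.8 and 7.57) and Adipor2 (12.1 and 7.62) ranked highest by joint strength. Among genes of mature fat cells, Dgat2 was shared, Cd36 and Cidec were marked in liver only and Lpl in MEFs only, and Adipoq, Fabp4, Plin1, Lep, Gpd1 and Ucp1 had no promoter peak in the liver or MEF list.

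Of the 25 lists, circadian clock genes had the highest share, with 17 of 25 marked (68.0%, 48.4 to 82.8%). The share was 21.0% over all genes and 33.4% over those with a CpG-rich promoter. Of the 25 clock genes, 22 had a CpG-rich promoter, 18 any liver promoter peak and 24 any MEF promoter peak. Over all genes these shares were 48.6%, 26.7% and 55.4%. The marked genes included activators (Clock, Arntl, Npas2), their repressors (Per1, Per2, Cry1, Cry2, Bhlhe40), the nuclear receptors Nr1d1, Nr1d2 and Rora, the output factors Dbp, Tef and Hlf, and the kinase gene Csnk1d. Csnk1d had 18.9 in liver and 8.40 in MEFs, Tef 18.4 and 9.26, and Nr1d1 15.0 and 9.66. The Nr1d1 summits lay 147 bp apart, and those of Csnk1d and Tef 631 and 607 bp. Of the marked clock genes with a human counterpart, 13 of 15 had a Hep3B promoter peak, beside 78.6% of all genes with a shared peak.

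Autophagy genes followed, with 21 of 34 marked (61.8%, 45.0 to 76.1%). Of the 34, 25 had a CpG-rich promoter, 22 any liver promoter peak and 33 any MEF promoter peak. Wipi1, which binds the lipids of the forming autophagosome, had 17.7 in liver and 10.3 in MEFs, Uvrag 14.6 and 11.7, and Tfeb, the transcription factor of lysosomal genes, 13.8 and 6.46. The Uvrag summits lay 9 bp apart. Cholesterol synthesis and uptake had 16 of 27 (59.3%, 40.7 to 75.5%). Of the 27, 17 had a CpG-rich promoter, 19 any liver promoter peak and 26 any MEF promoter peak. Hsd17b7 (14.8 and 8.64), Fdps (12.3 and 9.60) and Hmgcs1 (12.1 and 9.20) led, with Sqle, Srebf1 and Srebf2 among the others. Over all genes 21.0% were marked, and over those with a CpG-rich promoter 33.4%. Of all genes 48.6% had a CpG-rich promoter, 26.7% any liver promoter peak and 55.4% any MEF promoter peak.

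Stress and growth responses had intermediate shares, beside the 21.0% of all genes and the 33.4% of those with a CpG-rich promoter. Any liver promoter peak was found at 14 of 26 immediate early and 7 of 13 MYC network genes. It was found at 17 of 31 unfolded protein response and 26 of 43 nuclear receptor genes, and at 26.7% of all genes. Immediate early genes had 14 of 26 marked (53.8%), with Zfp36 (12.4 and 7.30), Fosl2 (10.9 and 6.71) and Dusp1 (10.4 and 8.79) first, and Jun, Junb, Ier3 and Egr3 without a liver or MEF promoter peak. The MYC network had 7 of 13 (53.8%), with Myc, its partner Max (10.2 and 9.09) and the antagonist Mxi1 (10.0 and 8.52). The unfolded protein response had 16 of 31 (51.6%), with its sensor Atf6 (12.7 and 7.80), the effector Atf4 (12.1 and 7.61) and Ppp1r15a (11.4 and 5.84). Nuclear receptors had 20 of 43 (46.5%, 32.5 to 61.1%), with the retinoic acid receptor gene Rara (15.6 and 9.53), Nr1d1 and the glucocorticoid receptor gene Nr3c1 (14.1 and 6.29) in front. Hnf4a, Nr5a2, Nr0b2 and Rxrg had a liver peak only.

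**Figure D5:**
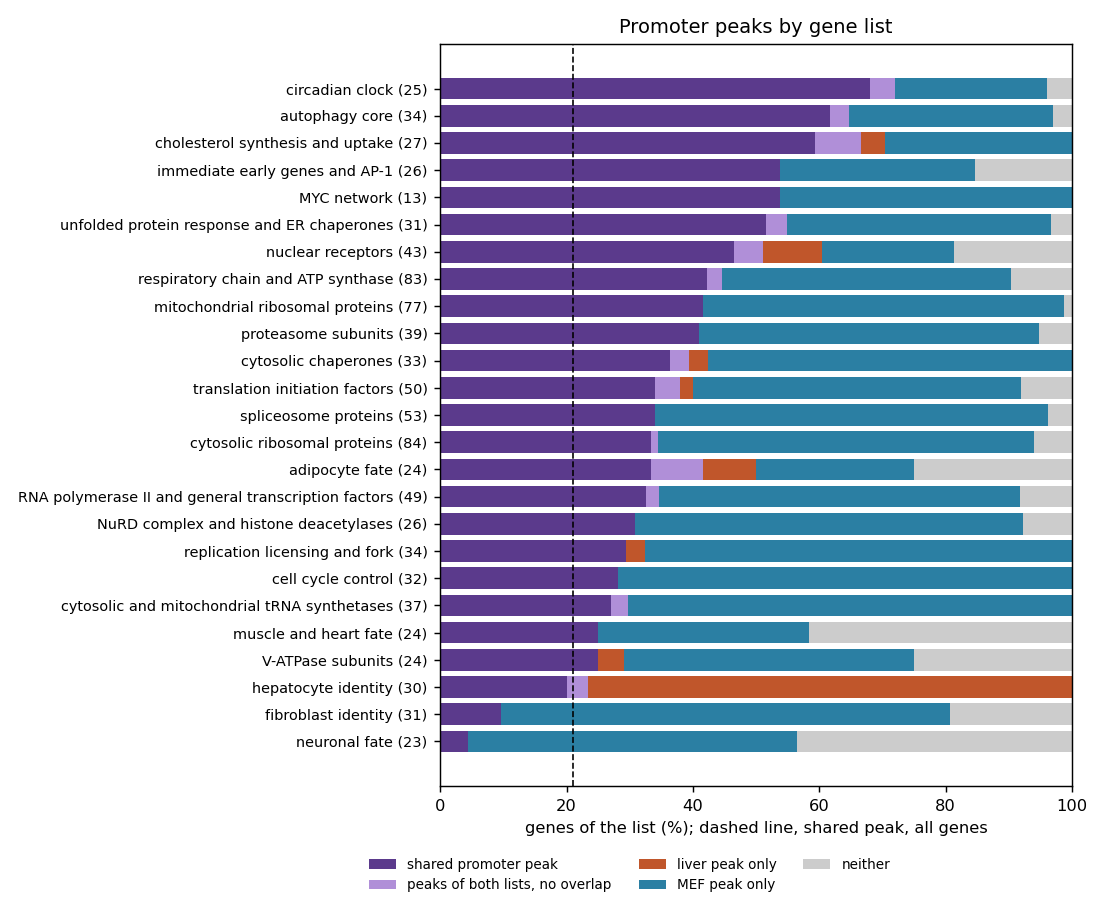
Genes of each of 25 lists (list size in brackets) by promoter peak class, in % of the list: shared peak, peaks of both lists without overlap, liver only, MEF only or neither. Bars run from 68.0% shared at circadian clock genes to 4.35% at neuronal genes; the dashed line is the 21.0% of all protein-coding genes, and hepatocyte genes stand out by their liver-only share (23 of 30).

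Housekeeping machineries ranged from 25.0% to 42.2%, around the 33.4% of genes with a CpG-rich promoter. Shared peaks marked 28 of 84 cytosolic ribosomal protein genes (33.3%), 32 of 77 mitochondrial ribosomal protein genes (41.6%), 16 of 39 proteasome genes (41.0%), 35 of 83 genes of the respiratory chain and ATP synthase (42.2%) and 17 of 50 translation initiation factor genes (34.0%). They marked 18 of 53 spliceosome genes (34.0%), 16 of 49 genes of RNA polymerase II and its general factors (32.7%), 12 of 33 cytosolic chaperone genes (36.4%), 8 of 26 genes of the NuRD complex and histone deacetylases (30.8%) and 10 of 34 replication genes (29.4%). Cell cycle control genes had 9 of 32 (28.1%), tRNA synthetase genes 10 of 37 (27.0%) and V-ATPase genes 6 of 24 (25.0%). Most of the remaining genes of these lists had a MEF promoter peak only, as did 50 of the 84 cytosolic and 44 of the 77 mitochondrial ribosomal protein genes, and neither of these lists had a gene with a liver peak only.

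Within these machineries the strongest members were Rpl36 (16.2 in liver, 8.27 in MEFs) and Rpl7l1 (18.1 and 7.36) for ribosomal proteins, Eif4b (15.6 and 8.84) for translation and Srsf5 (16.9 and 7.42) for splicing. Tars, the threonyl-tRNA synthetase gene, had 16.0 and 7.62, and Cox7a2, a cytochrome c oxidase subunit gene, 15.2 and 6.79. Trp53, which encodes p53, had 11.8 in liver and 8.40 in MEFs with summits 1287 bp apart. Cdkn1a, the p21 gene, had a weak liver peak (9.21) directly at a TSS and a strong MEF peak (8.95). Of the chromatin genes, Gatad2a (11.6 and 10.0), Zmynd8 (15.4 and 5.50) and Hdac5 (10.9 and 6.98) ranked highest.

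Sox9 and Tjp1, genes of biliary and epithelial cells, had MEF promoter peaks only (7.24 and 6.90). For Sox9 the nearest liver summit lay 1236 bp from a TSS. Krt19 and Afp had no promoter peak in either list, although the human counterpart of Krt19 had one in Hep3B.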

How the data were processed

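CUT&RUN peaks of 22 samples in 6 groups were analyzed as 3 deposited lists, 1 for each antibody group. According to the methods, the authors trimmed reads (Trim Galore 0.6.6), aligned them with Bowtie 2 (2.4.2) and called peaks with Genrich (0.6.1) on the pooled replicates of a group, and how IgG entered the calls is not given in the sources used here. Per the file headers and format, each deposited row held a signal value (the area under the peak), −log10 p and −log10 q values and the offset of the summit. The fixed score column and the IgG samples were not used. The smallest area was 500 in the liver list and 200 in the MEF list.

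Coordinates are mm10. Overlaps, distances to GENCODE M21 start sites and sequence windows were computed in Python (numpy 2.4.6, pandas 2.3.3, pysam 0.24.0) from the RefSeq copy of GRCm38.p6, and intervals are 95% Wilson intervals. Functions were tested on simulated intervals and sequences. Genes were counted with a summit within 1 kb of the TSS of a protein-coding transcript, and Hep3B genes were read with GENCODE 44 on hg38 by identical symbol in capitals. Where several MEF peaks overlapped a member, the one with the most bases in common was used.

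Named genes were the 10 peaks of highest joint rank, genes the study names, up to 3 genes of highest joint rank in each list, genes of a list without a shared peak where these were at most 3, and peaks at each threshold. Other genes named to complete or illustrate a count were picked after their values were seen. The members and lists were chosen with earlier results of these data known. Alternatives changed the overlap, the promoter window, the TSS set, the MEF threshold or the window length. Some genes and windows are not reported here.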

Additional observations from a re-analysis of the deposited data

How the results depend on the processing

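Each of 6 results was recomputed under 7 alternatives, and CpG content also with longer windows. When liver and MEF summits had to lie within 100 bp, shared promoter peaks numbered 1787 (17.5% of liver promoter peaks), genes 1714, the Hep3B share was 80.7%, the CpG-rich share 67.2% and the median distance 42 bp. With at least 50% of the shorter peak in common, 49.8% were shared, 53.4% were CpG-rich and the distance was 165 bp. With a promoter window of 500 bp these were 61.1%, 59.5% and 148 bp, with a Hep3B share of 77.1%, and with 2000 bp 43.3%, 44.6% and 208 bp. With protein-coding start sites alone 67.6% were shared and 54.1% CpG-rich. With a MEF area of at least 500, the floor of the liver list, 45.1% were shared, 54.4% CpG-rich, and the Hep3B share was 82.1%. With a MEF −log10 q of at least 2, 51.6% were shared. With windows of 200 bp to each side of the summit 53.8% were CpG-rich. The other values, counts of peaks and genes among them, stayed within 1.5 times or inside the interval of the reported value.

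No paired analysis was possible because each list pools its replicates and the results come from no test. Replicates were not left out in turn for the same reason. Depth and the spread between animals or cultures are unknown. The MEF factor was overexpressed and tagged, so occupancy there was measured under other conditions than in liver.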
